A study of Homo sapiens with 42 samples.

Results

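The HIF-2α R27E line was compared with wild-type (WT) 786-O cells, with 3 poly-A RNA-seq libraries of each, which are 6 of the 42 libraries of the series. 786-O is an established human clear cell renal cell carcinoma (ccRCC) line that lacks functional VHL, so its own HIF-2α is stable in normal oxygen, and it makes no functional HIF-1α. The R27E line is a stable 786-O line in which the weak L30 promoter drives HIF-2α carrying the R27E change in its DNA-binding domain, with a V5-HaloTag at the N-terminus. Per the study's methods the transgene was inserted by PiggyBac transposition and the cells were selected for a linked puromycin resistance gene. The WT cells received neither, and both groups keep the 786-O cells' own HIF-2α, which is not mutated. The labels do not describe the line as a single clone. Because insertion, selection and the mutant protein all separate the line from WT, their parts in any difference cannot be told apart.

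Hypoxia-inducible factors (HIFs) are dimers of an oxygen-regulated α subunit, HIF-1α or HIF-2α, and the constant partner HIF-1β, encoded by ARNT. The dimer binds short DNA motifs, called hypoxia response elements, through the basic regions of both subunits and raises genes of angiogenesis, glucose use and oxygen sensing. In ccRCC without VHL, HIF-2α is on permanently and is regarded as the main driver of the tumour. R27E lies outside the dimerization domain and was reported to impair DNA binding. The paper measured a reduced bound fraction for it, not a lost one. Because the cells' own HIF-2α is not mutated, the comparison shows RNA in cells given extra HIF-2α of impaired DNA binding. It cannot say which changes in RNA need HIF-2α on DNA.

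For reference, 4 other groups with the same promoter and tag were read beside it. In batch 1 these were functional HIF-2α and HIF-2αDM, a HIF-2α with a mutated dimerization domain, with 3 libraries each. The genotype field of HIF-2αDM names HIF-1α while its description names HIF-2α. EPAS1 counts in that line were 43729 to 54101 and HIF1A counts 181 to 208, so the raised transcript was that of HIF-2α. In batch 2, which has its own 3 WT libraries, functional HIF-2α and functional HIF-1α were used, with 3 libraries each. Levels in the other batch 1 lines are also given where they bear on a gene, namely HIF-1α, its DNA-binding mutant HIF-1α R30E, its dimerization mutant HIF-1αDM, and 2 knock-in (KIN) lines whose endogenous HIF-2α or HIF-1β carries the tag.

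Libraries held 67295165 to 74697741 gene-assigned reads for R27E and 66420117 to 101186554 for WT. Counts below are normalized counts, scaled to a library of 67177385 reads, at which 3 reads are worth 2.14 to 2.90 in these 6 libraries. The ccRCC markers VIM, KRT8, KRT18, PAX8 and PAX2 were at 1052 or more in every R27E and WT library, while CA9 was at 0 to 2.86. The summed level of 4 endothelial markers was 0 to 17.6 in R27E and 5.71 to 7.49 in WT, with PECAM1 at 0 throughout, and the leukocyte markers PTPRC and CD3E were also at 0 in all 6 libraries. The monocyte marker CD14 was at 5.73 to 25.1 in R27E and 6.66 to 17.2 in WT, with overlapping groups. None of these markers was called different by edgeR, and EGLN3, a hypoxia-induced prolyl hydroxylase that is one of the 786-O markers, stood at 7602 to 17540 in R27E against 5350 to 6677 in WT.

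EPAS1, the gene of HIF-2α, was the first check of the labels. It lies on chromosome 2 from 46293667 to 46386697 (hg38, plus strand, ENSG00000116016.14). Its normalized counts were 46590, 55706 and 66129 in R27E and 12661, 14133 and 16847 in WT. All 3 R27E libraries were above all WT libraries, a log2 change of 1.97 ± 0.20 (SE; edgeR adjusted p = 1.64e-06, n = 3 against 3). The functional HIF-2α line held 41118 to 52775 and HIF-2αDM 43729 to 54101, so the ranges of the 3 lines with a HIF-2α transgene overlapped. In bulk RNA a change in the share of cells and in RNA per cell cannot be told apart. Gene counts add the transgene and the cells' own gene and do not show the mutated base. HIF1A stood at 172 to 271 in R27E and 228 to 261 in WT, and ARNT at 979 to 1824 and 1503 to 1743, with neither called. Among 14 tested genes of the bHLH-PAS family to which the HIFs belong, EPAS1 was the only one called.

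Genes were called changed at an edgeR adjusted p of 0.01 or less and a fold of at least 2, among 23410 tested genes. Against WT, 105 genes were higher in R27E, 0.449% of those tested, and 11 were lower, 0.047%. All 116 are protein-coding, against 63.9% of tested genes. Of the tested genes 8119 had a mean count under 10, but only 2 of the higher and 1 of the lower genes did. The coding share was not compared at matched levels. None of the 116 had overlapping R27E and WT libraries, which a call made on these same libraries all but fixes. Of all tested genes, 6.06% had every R27E library above WT and 4.92% every one below. Of the higher genes 55 changed 2- to 4-fold, 32 changed 4- to 8-fold and 18 more than that. Their levels were mostly modest, with a median mean count of 166. The R27E library numbered 3 was the highest of its group for 68 of the 105, and library 1 the lowest for 66. No share over all tested genes was set beside these counts, so they cannot be read as a trait of the called genes.

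**Figure D1:**
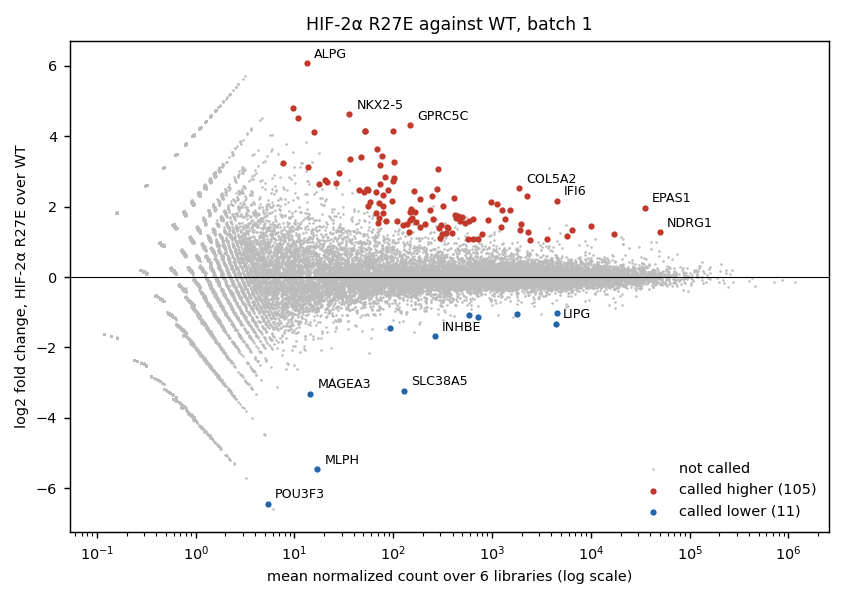
Log2 fold change of HIF-2α R27E over WT (vertical axis) against the mean normalized count over the 6 libraries (horizontal log axis) for the tested genes with reads. The 105 genes called higher are red, the 11 called lower are blue and the others grey; most called genes lie above the zero line, and the fold changes of POU3F3, MLPH and ALPG rest on groups at or near 0 reads.

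These counts depend on how the spread was estimated. The fit used all 27 libraries of batch 1, and when only the 6 compared libraries were used, 2 genes were higher (COL5A2 and SLC48A1, the latter named only as a call left here) and 1 was lower (SLC38A5), though all 116 kept their direction. With the replicate number as a block, 187 were higher and 26 lower and all 116 calls were kept. Without WT library 1 there were 55 higher and 7 lower, and without WT library 2 there were 58 and 4. The lower count was 4 without WT library 3, 5 without R27E library 2 and 6 without R27E library 3. Of the falls named by the rule of size, SLC38A5 alone kept its call with each of the 6 libraries left out in turn, as did IFI6, EPSTI1 and RSAD2 among the interferon-stimulated genes.

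The interferon-stimulated genes, antiviral effectors normally switched on by interferon receptors through the STAT and IRF factors, gave the most members called of the 28 lists examined. No list had more tested genes, and axon guidance, also with 41 tested, had 1 called. Of 41 tested, edgeR called 10 higher and 0 lower, beside 0.449% and 0.047% of all tested genes. At an unadjusted p under 0.05, 22 were higher and 0 lower, beside 1755 of all 23410 tested genes in either direction. DESeq2 called 12 higher and 0 lower. The median log2 change of the list was 0.56, beside 0.00307 over all tested genes, and 37 of the 41 had a positive change. Without WT library 1 or 2 the number called was 4, without WT library 3 it was 6, and with the 6 libraries alone it was 0.

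IFI6, an interferon-inducible mitochondrial protein on chromosome 1 from 27666064 to 27672212 (minus strand), had the highest counts of the 10. It was at 6632, 6139 and 9324 in R27E and 1981, 1389 and 1602 in WT, a log2 change of 2.17 ± 0.25 (edgeR adjusted p = 5.09e-06). The groups were far apart, with every R27E library above every WT library. OAS1, which makes the 2-5A messenger that activates RNase L, was at 731, 574 and 237 against 140, 121 and 120 (log2 2.03 ± 0.37). Its relative OAS2 was at 168, 211 and 40.6 against 18.3, 1.91 and 17.8 (log2 3.44 ± 0.67). In both OAS genes R27E library 3 was the lowest of its group, yet above every WT library. OASL rose by 1.75 ± 0.34, from 178 to 213 in WT to 508 to 869 in R27E.

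The dynamin-like GTPases MX1 and MX2, which block virus particles, both rose. MX1 was at 561, 485 and 468 in R27E and 168, 188 and 216 in WT (log2 1.42 ± 0.25), and MX2 at 178, 152 and 122 against 33.3, 22.9 and 26.4 (log2 2.46 ± 0.43). RSAD2 (viperin) was at 123, 195 and 81.1 against 9.99, 21 and 13.6, and its neighbour CMPK2, a mitochondrial nucleotide kinase, at 126, 126 and 130 against 15.8, 15.3 and 30. These 2 genes overlap on opposite strands, and since counting did not use strand their reads cannot be fully separated. MX1, OAS1, OAS2, IFI6 and EPSTI1 also overlap an antisense or pseudogene entry. EPSTI1 rose by 2.81 ± 0.43 and HERC5, the ligase that attaches ISG15, by 1.67 ± 0.27.

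**Figure D2:**
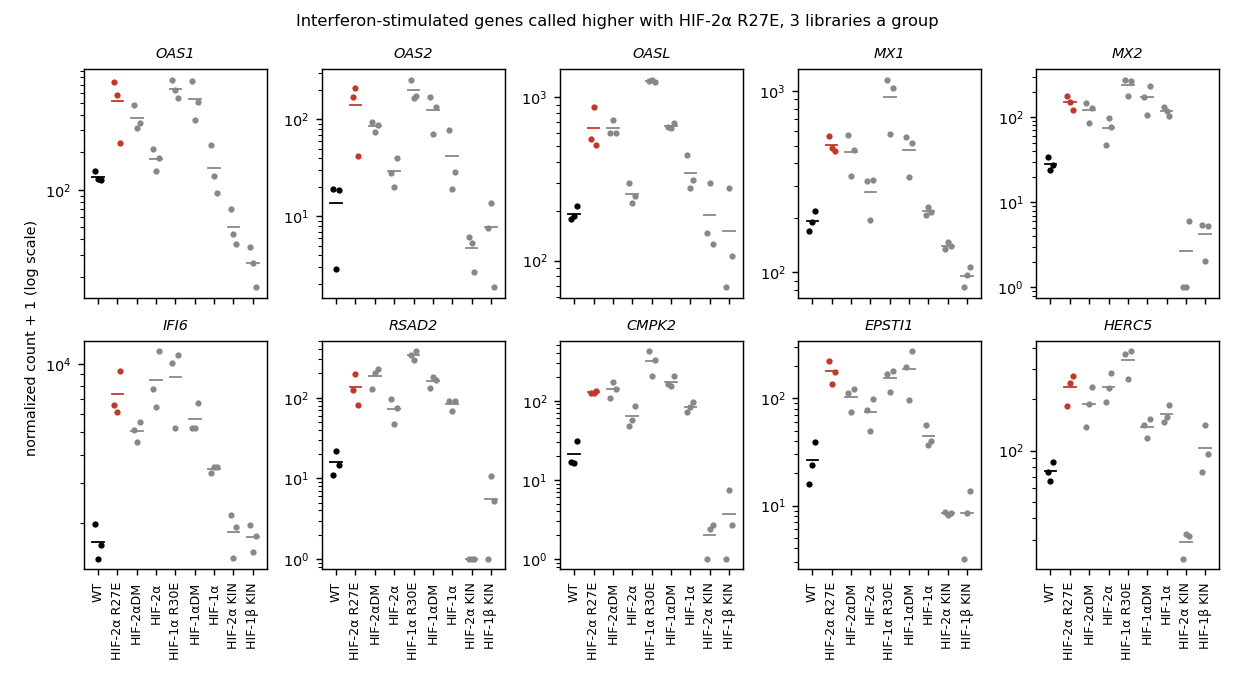
Normalized counts plus 1 (vertical log axis) of the 10 interferon-stimulated genes called higher, in each of 3 libraries (points) of the 9 batch 1 groups, with the group mean as a line; WT is black, HIF-2α R27E red. For all 10 genes the R27E points lie above the WT points, and the 2 KIN lines have the lowest group means for every gene but IFI6 and HERC5.

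The same genes can be read in the other lines. OAS1 was at 314 to 477 in HIF-2αDM, 542 to 767 in HIF-1α R30E and 366 to 747 in HIF-1αDM, and at 140 to 211 in functional HIF-2α. RSAD2 was at 127 to 228, 291 to 375, 130 to 182 and 46 to 94.3 in the same 4 lines. In the HIF-2α KIN line, which carries no transgene, RSAD2 was at 0 in all 3 libraries and OAS1 at 35.4 to 68.9. Both genes were thus lower in that KIN line than in WT and higher in the inactive-mutant lines. In the independent libraries of batch 2, 15 of 41 listed genes were higher and 3 lower with functional HIF-2α, with a median log2 change of 0.69 beside 0.07 over all genes, of which 5.45% were higher and 2.13% lower. With functional HIF-1α 10 were higher, with a median of 0.43 beside 0.03 over all genes, of which 3.9% were higher. Of the 10 genes, all were higher with HIF-2α in batch 2, and HERC5 alone was not called with HIF-1α.

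The interferon-stimulated response element is the motif through which these genes are classically induced, so GAAA, any 2 bases and GAAA again were searched on both strands in the 250 bases before the RefSeq gene start (GRCh38.p14). It was found in 20 of 31 listed and tested genes with an entry (64.5%), against 839 of 27305 promoters in all (3.07%). Of the 10 genes called higher, 7 had an entry and 3 a match, in capitals here, each read on the gene's strand 5′ to 3′. The IFI6 stretch is chr1:27672261-27672322 (minus), that of EPSTI1 chr13:42992267-42992306 (minus) and that of HERC5 chr4:88457030-88457069 (plus), where the match is on the opposite strand.
IFI6: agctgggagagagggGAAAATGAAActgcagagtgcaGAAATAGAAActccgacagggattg
EPSTI1: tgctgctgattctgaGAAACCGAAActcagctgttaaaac
HERC5: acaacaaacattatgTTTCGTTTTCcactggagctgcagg
The IFI6 stretch holds 2 matches. Of the listed genes not called, 17 of 24 with an entry had a match (70.8%). MX1, OAS1, RSAD2 and CMPK2 have no match with these letters in this window.

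The genes with the largest rises came from many functions. By a rule of at least 50 mean counts and no overlap, GPRC5C rose most. It encodes an orphan G protein-coupled receptor and lies on chromosome 17 from 74424851 to 74451653 (plus strand). It was at 163, 347 and 345 in R27E and 6.66, 11.4 and 24.3 in WT, a log2 change of 4.31 ± 0.56 (edgeR adjusted p = 3.86e-05). GPRC5C is one of 15 tested HIF-2 target genes of ccRCC and the only one of them called. It was at 299.8 to 538 in HIF-2αDM and at 351 to 529 in functional HIF-2α, which overlap each other. Its batch 1 means were higher with HIF-1α forms, at 2106 in functional HIF-1α, 783 in HIF-1α R30E and 879 in HIF-1αDM. The mean in functional HIF-2α was 438. In batch 2 its log2 change was 6.16 with HIF-1α and 4.02 with HIF-2α, so its rise was not particular to HIF-2α.

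The other large rises were of genes with separate roles. SYNGR1, a synaptic vesicle membrane protein, was at 71.4, 115 and 111 against 6.66, 5.72 and 4.28 (log2 4.15 ± 0.40). ELFN1, a synaptic transmembrane protein, was at 81.6, 145 and 336 against 12.5, 9.54 and 9.99 (log2 4.14 ± 0.58), with R27E library 3 far above the other two. The bicarbonate transporter SLC4A8 was at 167, 149 and 118 against 15.8, 21 and 23.5, and overlaps an antisense gene. CYP26B1, which degrades retinoic acid, was at 49.2, 84.9 and 157 against 3.33, 11.4 and 2.14, and was the only one of 20 tested retinoid genes called. NKX2-5, a homeobox factor of heart development named after its values were seen, was at 52.9, 66.8 and 86.9 against 3.33, 0.954 and 3.57.

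Collagen and matrix genes gave single calls. COL5A2, a fibrillar collagen chain on chromosome 2 from 189031898 to 189225312 (minus strand), was at 2414, 3152 and 4102 in R27E and 461, 598 and 645 in WT (log2 2.52 ± 0.25, edgeR adjusted p = 6.51e-07). It was the only collagen chain edgeR called of 27 tested, to which DESeq2 added COL6A1, and the median log2 change of the 27 was 0.43. TNFAIP6, a secreted hyaluronan-binding protein, was at 150, 221 and 176 against 27.5, 18.1 and 11.4. BGN (biglycan) and FBN1 (fibrillin-1) were the only matrix genes called of 30, at 46.4 to 55 against 4.77 to 7.49 and 221 to 314 against 48.5 to 84.9. ADAMTS7, a secreted protease, rose by 3.64 ± 0.44. The chemokine CXCL12 rose by 2.42 ± 0.40, the only one edgeR called of 22 cytokines and chemokines, to which DESeq2 added CXCL5, lower.

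**Figure D3:**
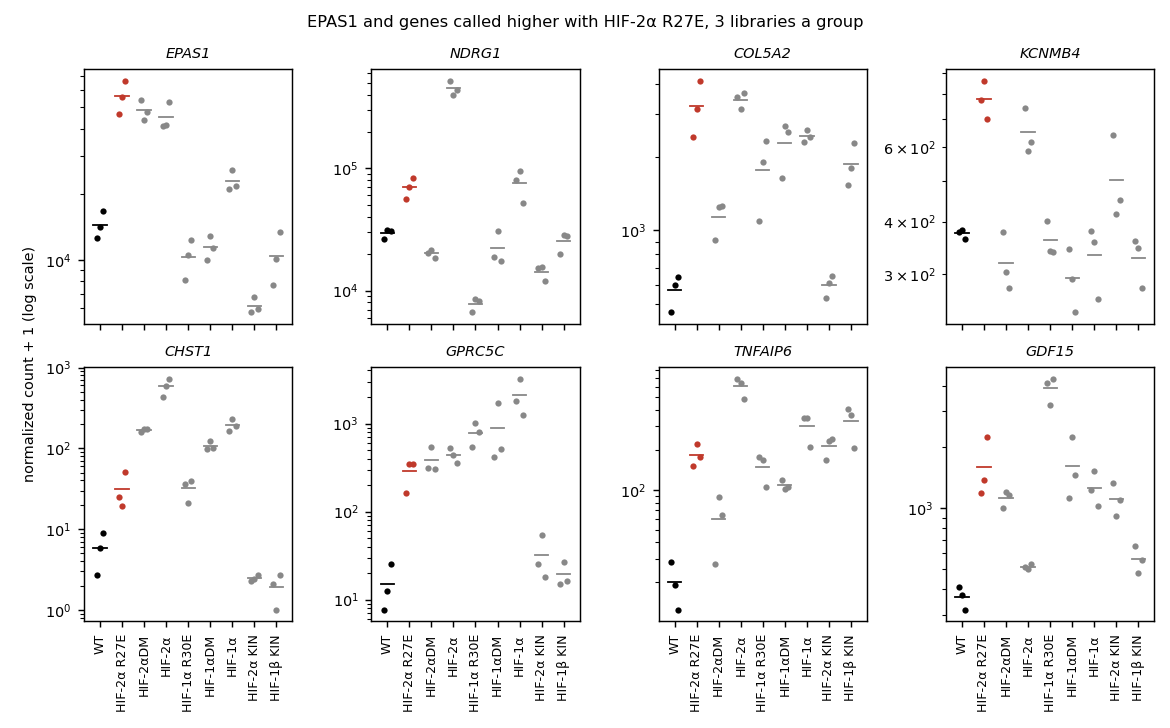
Normalized counts plus 1 (vertical log axis) of EPAS1 and 7 genes higher in HIF-2α R27E than in WT, in each of 3 libraries (points) of the 9 batch 1 groups, with the group mean as a line; WT is black, HIF-2α R27E red. EPAS1 is high in the 3 lines with a HIF-2α transgene, NDRG1 and CHST1 are highest in functional HIF-2α, and GDF15 is highest in HIF-1α R30E.

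Of 20 tested p53 targets, 2 were called higher, beside 0.449% of all tested genes. GDF15, a stress cytokine, was at 1183, 1374 and 2234 in R27E and 408, 375 and 315 in WT (log2 2.14 ± 0.24), and CDKN1A, which encodes the p21 cell cycle inhibitor, at 18678, 23288 and 30803 against 10525, 10348 and 10559 (log2 1.23 ± 0.18). They were the only ones called of 20 on that list, whose median log2 change was 0.36. At an unadjusted p under 0.05, 9 were higher and 0 lower, beside 1755 of all 23410 tested genes in either direction. Of the 20, 16 had a positive change. None of 24 proliferation genes was called by edgeR or DESeq2, with 0 at an unadjusted p under 0.05. Of 24 unfolded protein and amino acid stress genes none was called by edgeR or DESeq2, with 2 lower at an unadjusted p under 0.05. Of 8 puromycin and drug efflux pumps none was called by either tool, with 1 higher at an unadjusted p under 0.05. The 13 mitochondrially encoded mRNAs had a median log2 change of 0.25, and edgeR and DESeq2 called none, with 0 at an unadjusted p under 0.05.

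Several of these genes, picked after their values were seen, were also above WT in the HIF-2α KIN clone, which carries no transgene. CYP26B1 was there at 354 to 428 and the laminin receptor BCAM at 561 to 712, the first above the 49.2 to 157 of R27E and the second inside its 296 to 715. ELFN1 was at 196 to 228, SYNGR1 at 68.5 to 122, ADAMTS7 at 110 to 225, TNFAIP6 at 168 to 241 and GDF15 at 913 to 1337 in that clone. GPRC5C, at 16.9 to 52.8, and CXCL12, at 0 in all 3, were not raised to the R27E level there. In the functional HIF-2α line BCAM was at 86.3 to 98.2, BGN at 1.48 to 16 and GDF15 at 500.2 to 530.1, all below R27E by edgeR (log2 differences of 2.38, 2.37 and 1.66).

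Some rises started from almost no reads in WT, and all 4 named here were picked after their values were seen. ALPG, a placental-type alkaline phosphatase close in sequence to ALPP, had 83 reads in the 3 R27E libraries and 1 in WT, a ratio of 95.9 (exact 95% interval 16.7 to 3831, counting error only). The class II antigen gene HLA-DPB1 had 59 and 2 reads (ratio 34.1, 9.02 to 288), and XK 67 and 3 (25.8, 8.46 to 128). KIF26A, an atypical kinesin, had 94 and 6 (18.1, 8.01 to 50.6). Such genes share sequence with relatives in the cases of ALPG and HLA-DPB1, so unique-read counting can misplace their reads.

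Hypoxia-inducible genes as a list were centred near no change. Of 34 tested, NDRG1 was the only one called, and the list's median log2 change was -0.0026. At an unadjusted p under 0.05, 6 were higher and 2 lower, and DESeq2 added EGLN3. Glycolysis gave 0 calls of 22 by edgeR and by DESeq2, with 1 lower at an unadjusted p under 0.05 and a median of -0.03. PGK1, a glycolytic enzyme and HIF-1 target, was at 32683, 34000 and 11977 in R27E and 37184, 25003 and 19813 in WT, with overlapping groups. PPFIA4, another HIF-1 target, was at 89.7 to 166 and 105 to 152.

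NDRG1, a gene on chromosome 8 long used as a hypoxia marker, was at 56221, 70862 and 83307 in R27E and 26645, 31415 and 30453 in WT, a log2 change of 1.27 ± 0.23 (edgeR adjusted p = 0.00285). All R27E libraries lay above WT. The call was kept without R27E library 1 but lost with any other of the 6 libraries left out, while the log2 change stayed between 1.12 and 1.39. In functional HIF-2α it was at 396967 to 519386, and in HIF-2αDM at 18396 to 21594, below the WT range. Functional HIF-1α was at 51705 to 95228, a range that holds all 3 R27E values. The HIF-1α R30E line was the lowest of the 9 groups, at 6650 to 8586. HIF-1αDM, at 17332 to 30910, and HIF-1β KIN, at 19750 to 28728, overlapped WT and HIF-2αDM, and the HIF-2α KIN clone was at 12058 to 15479, below WT.

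The other HIF-2 targets were not called by edgeR, and DESeq2 added PLXNA2. TGFA, the growth factor ligand of the EGF receptor, was at 12786, 15854 and 12522 against 9066, 9853 and 9640, with log2 0.54 ± 0.16 and edgeR adjusted p = 0.144. CPE, a prohormone-processing carboxypeptidase, was at 287, 329 and 400 against 201, 134 and 93.5, with log2 1.27 ± 0.38 and edgeR adjusted p = 0.152. The semaphorin receptor PLXNA2 was at 705, 896 and 838 against 316, 383 and 480, with log2 1.06 ± 0.24 and edgeR adjusted p = 0.0204, just outside the threshold used. HSD3B7, an enzyme of bile acid synthesis, was at 511 to 817 against 824 to 905. In TGFA, CPE and PLXNA2 every R27E library was above every WT library, but by far less than in functional HIF-2α, where TGFA was at 50370 to 65096, CPE at 11270 to 16050 and PLXNA2 at 5603 to 7507.

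Among the 11 lower genes were some almost silent in R27E. SLC38A5, a transporter of neutral amino acids on chromosome X from 48458537 to 48470260 (minus strand, ENSG00000017483.15), was at 29.7, 20 and 23.2 in R27E and 226, 223 and 244 in WT. That is a fall of 3.23 ± 0.38 on the log2 scale (edgeR adjusted p = 9.89e-06), and its call held also in the 6-library fit. MLPH, a linker of Rab27a to myosin Va, had 2 reads in the 3 R27E libraries and 121 in WT, a ratio of 52.4 (exact 95% interval 14.2 to 437). POU3F3, a POU-domain transcription factor, was at 0 in all R27E libraries and 3.33, 12.4 and 16.4 in WT, at least 3.76-fold lower against a floor of 3 reads per library. MAGEA3, a cancer-testis antigen whose reads can be confused with MAGEA6, had 8 reads against 94, a ratio of 10.2 (4.96 to 24.3). MLPH and MAGEA3 were named after their values were seen, since they fall under the mean of 50.

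SLC38A5, MLPH, POU3F3 and MAGEA3 can be followed across lines. In functional HIF-2α SLC38A5 was at 6937 to 8625 and in functional HIF-1α at 5262 to 6859, while it was at 6.92 to 45.8 in HIF-2αDM, 10.8 to 30.4 in HIF-1α R30E and 71.3 to 107 in HIF-1αDM. The KIN lines held 6.5 to 32.9 (HIF-2α) and 13.1 to 24.8 (HIF-1β). WT therefore stood apart from every line without a functional transgene, the KIN lines included, and R27E sat inside the range of those lines. POU3F3 was at 307 to 643 in functional HIF-2α and at most 1.69 in every inactive-mutant or KIN line. MLPH was at 324 to 639 in functional HIF-2α and 672 to 810.5 in functional HIF-1α, and at most 5.89 in those lines. LTBP1, which holds latent TGF-β in the matrix, was at 61.2, 54.4 and 32.8 in R27E and 153, 115 and 143 in WT, and at 625 to 713 in functional HIF-2α. It was the one gene called, downwards, of 18 TGF-β genes.

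The core of the hypoxia response element was searched as ACGTG or GCGTG on both strands in the same 250 bases. These letters are common, in 11763 of 27305 promoters (43.1%) and 6941 of 12661 promoters of tested genes (54.8%), in 31 of 78 promoters of the higher genes (39.7%) and in 5 of 9 of the lower ones (55.6%). ACGTG alone was in 3 of 9 promoters of the lower genes (33.3%), 9 of 78 of the higher ones (11.5%) and 2858 of 12661 of all tested genes (22.6%). The 3 lower genes with ACGTG are shown, 5′ to 3′ on the gene's strand, because each was raised with functional HIF-2α in batch 2 and lower here. Matches are in capitals, and CACGTG reads as ACGTG on both strands, so it counts as 2 overlapping matches. SLC38A5 is chrX:48470446-48470481 (minus), MLPH chr2:237487201-237487250 (plus) and LTBP1 chr2:32946850-32946884 (plus, match on the opposite strand).
SLC38A5: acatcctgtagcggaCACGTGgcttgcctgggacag
MLPH: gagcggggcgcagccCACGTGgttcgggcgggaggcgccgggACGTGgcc
LTBP1: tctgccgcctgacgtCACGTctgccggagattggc
POU3F3 and MAGEA3 have neither motif in this window.

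The remaining 6 lower genes fell 2- to 4-fold from higher levels. INHBE, an activin subunit, was at 173, 62 and 137 against 523, 305 and 383 (fell by 1.68 on the log2 scale). LIPG, the endothelial lipase, was at 3301, 2800 and 1418 against 6482, 6904 and 5581, with R27E library 3 the lowest. SGPP2, a sphingosine-1-phosphate phosphatase, was at 401, 362 and 359 against 816, 801 and 795. Its call was lost with any 1 of the 6 libraries left out, while its log2 change stayed between -1.15 and -1.07. The keratin KRT79, the ubiquitin ligase TRIM9 and the membrane-bending protein MTSS1 fell by 1.15, 1.05 and 1.03 on the log2 scale. In functional HIF-2α SGPP2 was lower still, at 69.8 to 84.7, while LIPG, at 1699 to 2007, overlapped R27E and TRIM9 was at 2090 to 3141, close to the 2020 to 2790 of WT.

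**Figure D4:**
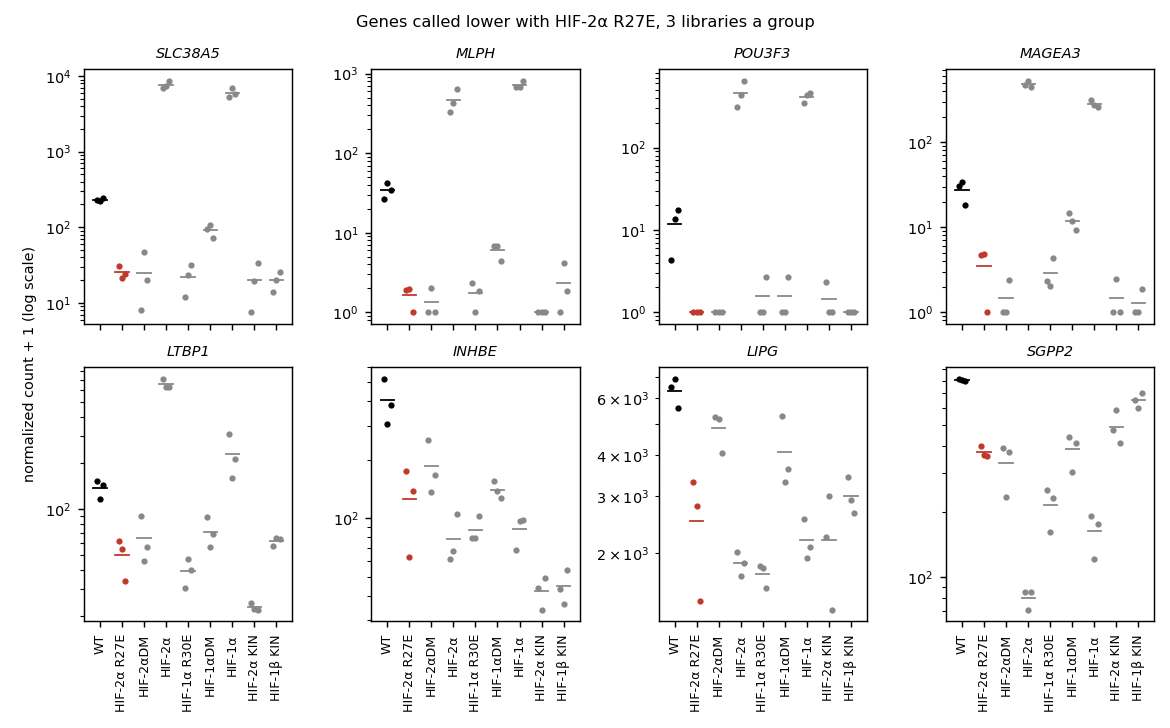
Normalized counts plus 1 (vertical log axis) of 8 of the 11 genes lower in HIF-2α R27E than in WT, in each of 3 libraries (points) of the 9 batch 1 groups, with the group mean as a line; WT is black, HIF-2α R27E red. SLC38A5, MLPH, POU3F3, MAGEA3 and LTBP1 are highest in functional HIF-2α and HIF-1α (LTBP1 in HIF-2α by far), whereas INHBE, LIPG and SGPP2 are below WT there too.

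Against functional HIF-2α of the same batch, R27E was higher in 359 genes, 1.53% of those tested, and lower in 490, 2.09%. The genes lowest in R27E were nearly silent in it. LHX5, a LIM-homeobox factor, was at 0, 0 and 0.966 in R27E and 997, 1131 and 1705 in HIF-2α, and RTN4RL1 and CASP14 were at 0 in all R27E libraries against 243 to 359 and 230 to 375. WT was also at under 1 in those 3 genes. In the other direction ATOH8, a bHLH factor, was at 2072, 2049 and 5280 in R27E and 166 to 250 in HIF-2α, with WT at 1471 to 2946. S1PR1, ALDH1A1, CCL2 and KCNJ16 were the next, higher in R27E by 3.54, 3.63, 3.52 and 3.52 on the log2 scale. WT and R27E overlapped in ATOH8, CCL2 and KCNJ16.

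Of the lists, 16 of 34 hypoxia-inducible genes were lower in R27E than in functional HIF-2α, with a median log2 difference of -1.07, beside 0.09 over all tested genes. Over all tested genes 2.09% were lower and 1.53% higher. For HIF-2 targets of ccRCC 10 of 15 were lower and 1 (SCD) higher, with a median of -1.49. Glycolysis had 7 of 22 lower, among them ENO2, SLC2A1 and HK2. For interferon-stimulated genes the direction was opposite, with 6 of 41 higher and a median of 0.93. Those 6 were GBP2, IFI44L, USP18, XAF1, GBP1 and OAS1. Of these, edgeR called OAS1 alone higher in R27E than in WT. With functional HIF-2α in batch 2, GBP2, GBP1 and USP18 were called lower than WT, and IFI44L and OAS1 higher.

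R27E and HIF-2αDM differ in whether the overexpressed protein can still pair with HIF-1β, and neither is meant to act on DNA. Of 23410 genes, 5 were higher in R27E (0.0214%) and 1 lower (0.00427%), with 1017 at an unadjusted p under 0.05. In this fit, that number is no larger than this threshold would be expected to give if no gene differed. With the replicate block it was 1683 of 23410, and with only the libraries numbered 1 and 2 it was 1573 of 23257. Both are larger than that expectation. NDRG1, given above, was higher in R27E by 1.81 on the log2 scale (edgeR adjusted p = 0.000889). COL5A2 was at 914, 1244 and 1253 in HIF-2αDM against 2414 to 4102 in R27E. KCNMB4, a potassium channel β subunit, was at 377, 303 and 277 against 774, 859 and 696, and also above WT, at 364 to 382. F3, the coagulation initiator tissue factor, was at 1672 to 2078 against 3637 to 4553, and TRABD2A, a membrane protease that acts on Wnt proteins, at 299 to 430 against 751 to 1001. All 5 were without overlap.

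CHST1, a carbohydrate sulfotransferase, was the lower gene, at 24.1, 18.1 and 50.2 in R27E and 159, 174 and 173 in HIF-2αDM (fell by 2.44, edgeR adjusted p = 0.00412), and it was at 1.66 to 7.85 in WT. F3 is at 16597 to 20640 and NDRG1 at 396967 to 519386 in functional HIF-2α, far above both mutants, while COL5A2 is there at 3148 to 3663, inside the R27E range. These few calls are fragile. Without HIF-2αDM library 1 or 3, or with the 6 libraries alone, edgeR called none. At an unadjusted p under 0.05 there were 715 of 23458, 1228 of 23388 and 647 of 23169 tested genes. NDRG1 alone was left without R27E library 2, NDRG1 and TRABD2A without HIF-2αDM library 2, and 3 higher genes and no lower one without R27E library 1. DESeq2 on all batch 1 libraries called 17 higher and 6 lower, which include the 6.

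Batch 2 shares no library with batch 1, so the R27E genes were also read in its functional HIF lines. There 1566 genes were higher with HIF-2α than with WT (5.45% of 28724 tested) and 611 lower (2.13%), and 1121 were higher with HIF-1α (3.9%) and 139 lower (0.484%). Of the 104 genes raised in R27E other than EPAS1, all tested in both batches, 81 (77.9%) were higher with HIF-2α, against 6.62% of all genes tested in both, and 1, AIF1L, was lower. With HIF-1α 93 (89.4%) were higher, against 4.87%. Of the 104, 76 (73.1%) were higher in both, against 3.17% of all genes. These 81 and 93 genes were 5.34% and 8.34% of those raised by HIF-2α and HIF-1α. RNA of batch 2 was extracted and prepared with other kits, and batch 2 lines carry the same kind of cassette and selection.

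Without WT library 1, when 55 genes in all were called higher, the HIF-2α and HIF-1α numbers were 42 and 48. Without WT library 2 they were 43 and 50 of 58, and without WT library 3 they were 53 and 62 of 70. With the 6 libraries alone they were 1 and 2 of 2. The 6 genes higher in neither functional line were BICDL1, KCNMB4, SEMA6B, SLC26A11, TMC6 and TRPV4, named as exceptions after their values were seen, as was AIF1L. SEMA6B, a semaphorin, was at 561 to 1126 in R27E, 178 to 289 in WT, 807 to 998 in HIF-2αDM and 1682 to 2521 in HIF-1α R30E, and at 272 to 347 in functional HIF-2α. KCNMB4 was at 338 on average in batch 2 WT and 618 with HIF-2α there, a log2 change of 0.89, under the fold required.

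**Figure D5:**
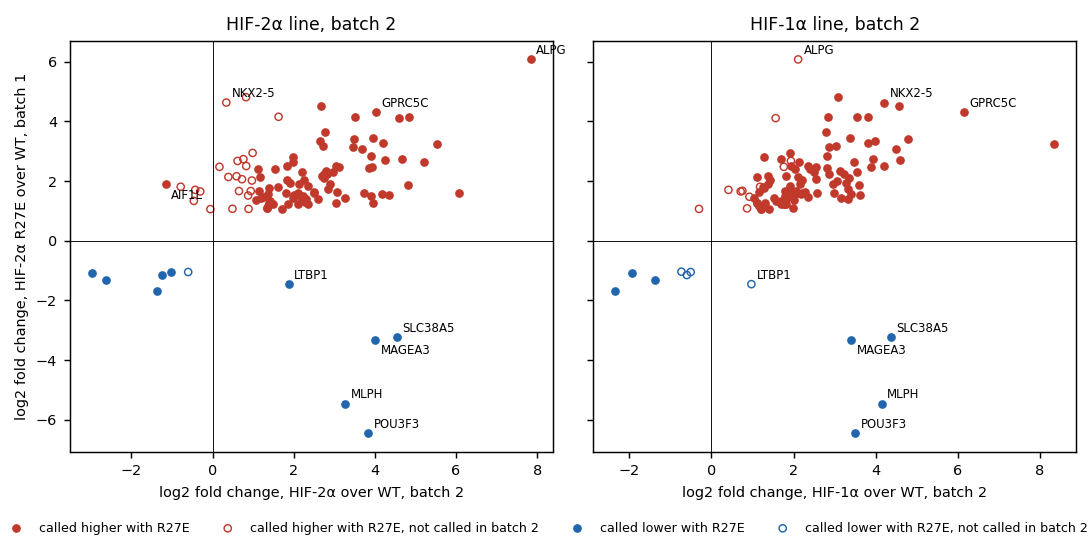
Log2 fold change over WT of the genes called in HIF-2α R27E (batch 1, vertical axis, EPAS1 left out) against their change with functional HIF-2α (left) or HIF-1α (right) in batch 2 (horizontal axes). Red genes are higher and blue genes lower with R27E, and filled points were also called in batch 2; most red points are to the right of zero, and SLC38A5, MLPH, POU3F3 and MAGEA3 are low with R27E and high with both functional factors.

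Read the other way, only a small part of the genes raised by HIF-2α in batch 2 was called higher in R27E. Most had a positive change that was not called, with quartiles of 0.0076 and 1.09 on the log2 scale. Of 1517 such genes tested in batch 1, R27E was higher than WT in 82 (5.41%) and lower in 5 (0.33%), against 0.458% and 0.048% of all genes, with a median log2 change of 0.42. Against functional HIF-2α of batch 1 the same 1517 had 433 lower and 5 higher in R27E, with a median of -1.12. For the 416 raised at least 8-fold the median was 0.81 against WT and -2.82 against HIF-2α. Of 608 genes lowered by HIF-2α in batch 2, R27E was lower than WT in 5 and higher in 1, with a median of -0.17, and higher than functional HIF-2α in 231. Of 1115 genes raised by HIF-1α in batch 2, R27E was higher than WT in 93 (8.34%) and lower in 4. Their median log2 change was 0.75.

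The 11 genes lower in R27E divided evenly with HIF-2α in batch 2. SLC38A5, MLPH, POU3F3, MAGEA3 and LTBP1 were higher there (log2 4.54, 3.27, 3.84, 4.00 and 1.88), and INHBE, LIPG, KRT79, SGPP2 and MTSS1 were lower (log2 -1.37, -2.62, -1.24, -2.98 and -1.02). TRIM9 was called in neither direction. With HIF-1α 4 were higher and 3 lower. SLC38A5 was at 148 to 213 in batch 2 WT and at 3717 to 4662 with HIF-2α there. Batch 2 counts are scaled to a library of 89517111 reads and batch 1 counts to 67177385. The 223 to 244 of batch 1 WT is therefore not directly comparable.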

How the data were processed

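Per the study's methods and the submitters' processing notes, the authors aligned poly-A reads to hg38 with STAR, counted uniquely mapped reads per GENCODE v32 gene without regard to strand with HTSeq, and deposited raw counts for each of 42 libraries. The versions in the submitters' notes (STAR 2.7, HTSeq 0.11.1) differ from those in the methods. Every library lists 60609 genes, and no unassigned-read or spike-in rows were in the files used here. Library totals were 42377599 to 101186554 in batch 1 and 76366799 to 109642159 in batch 2. Intervals on read numbers cover counting error only.

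From the deposited counts, the genes averaging 0.5 or more normalized counts entered the test of each batch in edgeR 4.0.16 (R 4.3.3), using TMM factors and a quasi-likelihood fit to all 27 batch 1 or 15 batch 2 libraries, with Benjamini-Hochberg adjustment over all tested genes. Calls needed an adjusted p of 0.01 or less and a fold of 2. The study's tool, DESeq2 1.42.0, was an alternative, beside RLE factors, other count filters, glmTreat, the 6 compared libraries, leave-one-out and the replicate block. The glmTreat setting tested against a fold of 1.2, and its calls needed the adjusted p alone, without the fold of 2. Replicates are biological per the study's methods.

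Members and lists were chosen with earlier results of these data known. Named genes were the HIF family, genes of the study's RNA-seq text, list members called, the 20 largest rises and 10 largest falls with a mean of at least 50 and no overlap, and the 5 largest in each direction against HIF-2α and HIF-2αDM under the same limits. Others are named as exceptions. Same-numbered R27E and WT libraries deviated together (correlations of 0.28, 0.142 and 0.496), as did R27E and HIF-2α (0.19, 0.15 and 0.45). Their numbers were taken to pair them, but only in the replicate-block fit. The main fit, which gave the reported SEs, adjusted p-values and calls, had no replicate term. No 2 libraries of a group agreed within sampling noise. Gene positions are from GENCODE v44 and promoters from RefSeq (GRCh38.p14). One listed marker is not reported here.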

Additional observations from a re-analysis of the deposited data

Results flagged for a closer look

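The difference between HIF-2α R27E and HIF-2αDM was tested directly, which compares the 2 mutants' effects over the shared WT libraries. NDRG1 (log2 1.81), COL5A2 (1.51), TRABD2A (1.32), KCNMB4 (1.29) and F3 (1.15) were higher in R27E, and CHST1 (-2.44) was lower. Between R27E and functional HIF-2α, the same kind of test found 359 genes higher and 490 lower in R27E. Groups of 3 libraries are too small for a test of single outlying libraries.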

How the results depend on the processing

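Against WT (105 higher, 11 lower), DESeq2 gave 176 and 20, no filter on low counts 192 and 23, the 6 libraries alone 2 and 1, and the replicate block 187 and 26; glmTreat gave 6 lower, libraries numbered 1 and 2 gave 7 lower, and leaving out 1 library gave 55 to 113 higher and 4 to 8 lower. All 116 genes kept their direction in each of these fits. Of 43 named genes called, 24 to 34 stayed called with 1 library left out and 2 with the 6 libraries alone. Against HIF-2α, the 6 libraries alone gave 152 higher, leaving out 1 library gave 257 to 399 higher and 385 to 559 lower, and the replicate block changed neither count by more than 1.5 times. Against HIF-2αDM (5 and 1), DESeq2 gave 17 and 6, no filter 28 and 12, glmTreat 2 higher, libraries numbered 1 and 2 gave 12 higher, the 6 libraries alone 0 and 0, and leaving out 1 library 0 to 4 and 0 to 1. There the replicate block gave 20 and 6, but correlations of 0.0961, 0.118 and 0.354 did not meet the rule for pairing. In batch 2, glmTreat gave 2516 higher and 1992 lower for HIF-2α and 538 lower for HIF-1α. Calls by glmTreat had no fold of 2 to meet, so its counts are at another cut than the main ones. Same-numbered batch 2 libraries did not deviate together. The cause of these differences was not tested. Counts of interferon-stimulated genes and of batch 2 overlaps under each setting were added after seeing the data. With 3 libraries a group, genes of few reads are the least certain.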
